A study of Homo sapiens with 18 samples.

Results

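The 8 genes described here, SPTB, ANK1, EPB42, SLC4A1, RHAG, GYPB, GYPC and XK, encode proteins of the red cell membrane and of the skeleton that lines it. They were matched by symbol to the gene identifiers of the tables for the 3 days, and all 8 were present among 35168 identifiers. RNA-seq libraries came from H1, a line of human embryonic stem cells (hESCs), either wild type (WT, the Control samples) or with USB1 mutated (USB1 mut, written USB1 mutant below). USB1 is an exonuclease that shortens the 3′ ends of RNAs such as U6 snRNA. Its mutation, a frameshift found in poikiloderma with neutropenia, was introduced with CRISPR/Cas9 and the edited colonies were picked by hand, so the genotype and the picked line cannot be told apart. Samples were taken from undifferentiated hESCs at day 0 (D0), from hematopoietic progenitors at day 16 (D16), described in the study as CD34+/CD45+, and from mature blood cells at day 30 (D30). Each genotype had 3 libraries on each day, 18 in all. Up to D16 cells of both genotypes went through the same serum-free differentiation, in which erythropoietin and stem cell factor were among the cytokines added. For later days the paper describes culture in methylcellulose or in medium with serum, and does not say which gave the D30 libraries.

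The membrane of a red cell withstands repeated deformation because its lipid bilayer is tied to a meshwork of spectrin strands that meet at short actin filaments. Ankyrin joins β-spectrin to band 3, the anion exchanger, with protein 4.2 at the same site, while glycophorin C is anchored at the actin junctions through protein 4.1. Defects of spectrin, ankyrin, band 3 or protein 4.2 cause hereditary spherocytosis, the Rh-associated glycoprotein holds the Rh antigens in the membrane, and loss of XK, the partner of the Kell glycoprotein, causes the McLeod syndrome. During red cell development most of these genes are switched on under GATA1 and KLF1, the factors that bind GATA and CACCC motifs.

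For 5 of the 8 genes the 250 bases before the annotated start are shown, because most of the 8 genes rose together after D16 and the motifs of their known regulators can be read there. The sequences are from RefSeq on GRCh38.p14 and read 5′ to 3′ on the strand of the gene, with each GATA motif in capitals. A GATA motif was the word GATA preceded by A or T and followed by A or G, searched on both strands.
SPTB, chr14:64879908-64880157, minus strand: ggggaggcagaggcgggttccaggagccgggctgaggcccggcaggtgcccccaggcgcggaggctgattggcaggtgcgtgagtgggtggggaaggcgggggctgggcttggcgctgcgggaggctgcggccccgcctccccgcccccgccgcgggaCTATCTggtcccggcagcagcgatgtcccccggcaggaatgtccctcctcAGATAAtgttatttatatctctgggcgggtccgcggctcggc
EPB42, chr15:43221019-43221268, minus strand: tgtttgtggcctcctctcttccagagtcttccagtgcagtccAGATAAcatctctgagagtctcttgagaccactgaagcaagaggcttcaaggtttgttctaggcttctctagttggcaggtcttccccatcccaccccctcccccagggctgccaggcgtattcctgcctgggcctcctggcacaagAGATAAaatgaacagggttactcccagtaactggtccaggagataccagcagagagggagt
RHAG, chr6:49636840-49637089, minus strand: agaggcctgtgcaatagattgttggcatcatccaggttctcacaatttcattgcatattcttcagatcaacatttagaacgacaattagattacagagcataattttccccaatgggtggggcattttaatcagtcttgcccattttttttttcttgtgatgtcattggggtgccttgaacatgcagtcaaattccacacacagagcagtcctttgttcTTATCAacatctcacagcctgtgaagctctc
GYPB, chr4:144019381-144019630, minus strand: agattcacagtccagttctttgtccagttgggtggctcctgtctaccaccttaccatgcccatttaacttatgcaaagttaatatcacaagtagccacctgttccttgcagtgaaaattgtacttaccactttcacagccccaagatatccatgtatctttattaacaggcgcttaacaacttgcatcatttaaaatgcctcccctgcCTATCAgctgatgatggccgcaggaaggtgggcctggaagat
GYPC, chr2:126655908-126656157, plus strand: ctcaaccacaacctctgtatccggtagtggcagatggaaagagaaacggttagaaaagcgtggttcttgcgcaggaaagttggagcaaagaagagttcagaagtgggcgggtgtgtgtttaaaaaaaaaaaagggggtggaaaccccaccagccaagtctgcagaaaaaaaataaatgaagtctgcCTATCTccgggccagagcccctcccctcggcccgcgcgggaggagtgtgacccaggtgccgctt
Each of these 5 stretches held at least 1 GATA motif, and those of SPTB and EPB42 held 2. Over all 35116 RefSeq promoters of the same length, 22.3% held one. The matches nearest to the start began 42 bases upstream in SPTB, 61 in EPB42, 31 in RHAG, 42 in GYPB and 64 in GYPC. A second SPTB start at chr14:64823381-64823630 held 0 GATA motifs, and a second GYPB start at chr4:144019346-144019595, which overlaps the first, held 2. ANK1, SLC4A1 and XK are not shown, so these matches do not cover all 8 genes. RHAG, which is shown, was not among the genes that rose after D16. The CACCC motif CCNCNCCC, searched on both strands with overlapping matches counted separately, was found 3 times each at the first SPTB start and in EPB42, 2 times in GYPC, 1 time in RHAG and 0 times in GYPB, and it was present in 53.4% of all promoters. A match is a description of the letters and does not show that a factor was bound.

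**Figure D1:**
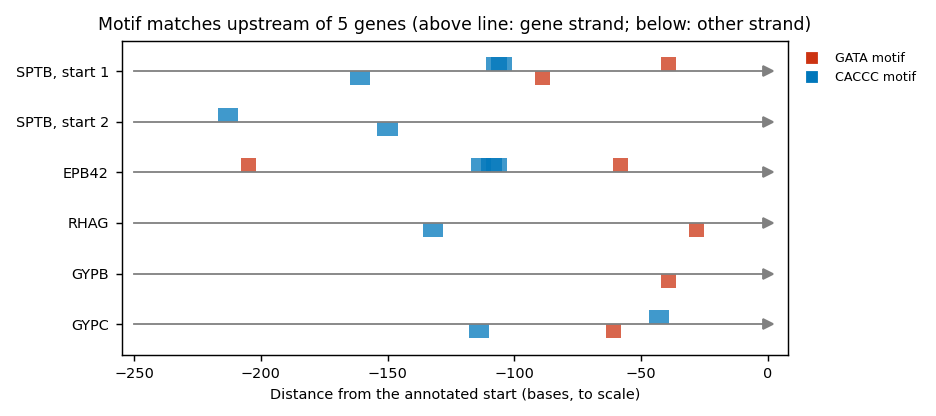
Motif matches in the 250 bases before the annotated start, drawn to scale, with the distance from the start in bases on the x axis, GATA motifs in red and CACCC motifs in blue, above the line on the gene's strand and below it on the other. A GATA motif lies within 64 bases of the start in SPTB (start 1), EPB42, RHAG, GYPB and GYPC, and none lies at start 2 of SPTB.

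Total counts ran from 4125102 (mutant replicate 3 at D30) to 19368903 per library. Marker genes followed the labelled stages. POU5F1, a pluripotency factor, was at 704 ± 27.7 (WT) and 806 ± 68.8 CPM (counts scaled to the library's size, mean ± SD, n = 3 throughout) at D0 and at most 20.1 in any later library. CD34 was highest at D16, at 119 ± 47.9 and 147 ± 14.6 CPM, and PTPRC (CD45) was at 706.5 ± 115 and 489 ± 83.5 CPM there. The D30 libraries held RNA of several lineages, and globins took 1.31 to 1.73% of the counts in WT and 5.41 to 8.83% in mutant libraries. USB1 mRNA was not called on any day (log2 fold change of mutant over WT 0.11 ± 0.09, −0.09 ± 0.14 and −0.24 ± 0.19 at D0, D16 and D30, adjusted p at least 0.43), and since a frameshift need not alter mRNA amounts, this does not check the genotype labels. At D30 mutant replicate 1 and WT replicate 1 were the highest of their group for all 8 genes, so the D30 comparisons of the 8 genes and of the gene lists were repeated without mutant replicate 1. WT replicate 1 was kept in this repeat. For the 8 genes it could therefore only lower the mutant over WT values, and that they fell is not a result. In bulk RNA, fewer cells of a type and less RNA per cell cannot be told apart.

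Compared per length, in TPM (transcript abundance scaled for length and library size), the 8 genes changed their order at each stage. In WT hESCs their summed level was 36.7 ± 2.58 TPM, and 70.5 ± 4.68% of it was GYPC, the glycophorin found in many tissues besides red cells. ANK1 held a further 17.7 ± 3.3%. At D16 the sum was 119 ± 15.6 TPM in WT and 280 ± 37.9 TPM in mutant cells. GYPC (35.6 ± 1.86%) and RHAG (31.0 ± 2.23%) led in WT, and RHAG (40.9 ± 5.11%), GYPB (25.3 ± 1.48%) and GYPC (23.9 ± 4.25%) led in the mutant. At D30 the sum was 802 ± 235 and 1960 ± 762 TPM. SLC4A1, under 1% of the sum on either earlier day, held 33.6 ± 4.0% in WT and 32.9 ± 4.09% in mutant cells and shared the lead with GYPC.

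In WT D30 cells the order by level was SLC4A1 (263 ± 42.2 TPM), GYPC (224 ± 44.1), ANK1 (94.3 ± 40.2), GYPB (88.3 ± 57.8), RHAG (44 ± 28.6), SPTB (38.3 ± 14.1), EPB42 (36.1 ± 15.7) and XK (13.6 ± 3.02). SLC4A1 and GYPC differed by less than their spread, and so did each neighbouring pair from ANK1 to EPB42. Mutant D30 cells had GYPC (683 ± 145 TPM) and SLC4A1 (650 ± 294) first, again within their spread, and RHAG last (44.2 ± 23.2), within the spread of XK (48.2 ± 15.4). The GYPB level per length rests on an effective length of only 207 to 234 bases (group means) and is the least certain.

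**Figure D2:**
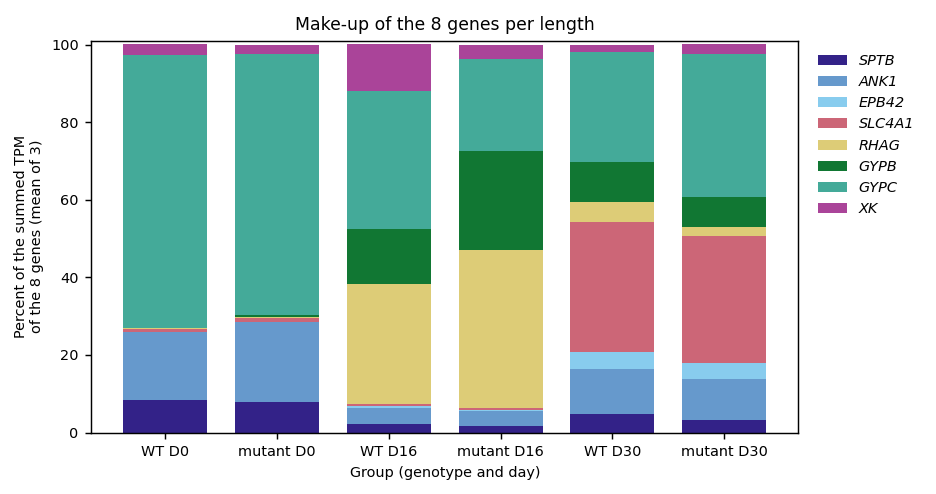
Share of each gene in the summed TPM of the 8 genes, in percent (y axis, mean of 3 libraries), by group (x axis). GYPC takes 70.5% in WT hESCs, RHAG, GYPB and XK take larger shares at D16 than at D0, and SLC4A1 takes about as much as GYPC at D30.

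The first question was how the genes changed from hESCs to progenitors and on to blood cells. Calls were made with the quasi-likelihood test of edgeR, at p-values adjusted by Benjamini-Hochberg over all 16829 genes (padj) under 0.1. From D0 to D16, 6 of 8 genes rose in WT and 0 fell, where 37% of all genes tested were called higher and 39.3% lower. In the mutant 7 rose and 0 fell, against 36.9% and 36%. From D16 to D30, 6 rose and 0 fell in WT (31.6% and 35.1% of all genes), while in the mutant 7 rose and 1, RHAG, fell (34.7% and 35.1%). Both changes in WT and both in the mutant share the D16 libraries of that genotype.

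The second question was how mutant and WT cells differed within a day, tested on the 6 libraries of that day. At D0, 4 of the 8 genes passed the filter on low counts (SPTB, ANK1, GYPC and XK) and 0 were called, against 1.07% of 14719 genes called higher and 1.87% lower. All 4 had overlapping genotypes, with 0 at an unadjusted p under 0.05, and 0 were called under any alternative tool or setting. At D16 all 8 were tested, and 6 were higher in mutant cells and 0 lower, against 13.1% and 15.3% of 14528 genes. At D30, 5 of 8 were higher and 0 lower, against 10.8% and 9.75% of 14263 genes. The median log2 fold change of the 8 was 0.82 at D16 and 1.38 at D30, where the medians of all genes were 0.01 and −0.01.

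**Figure D3:**
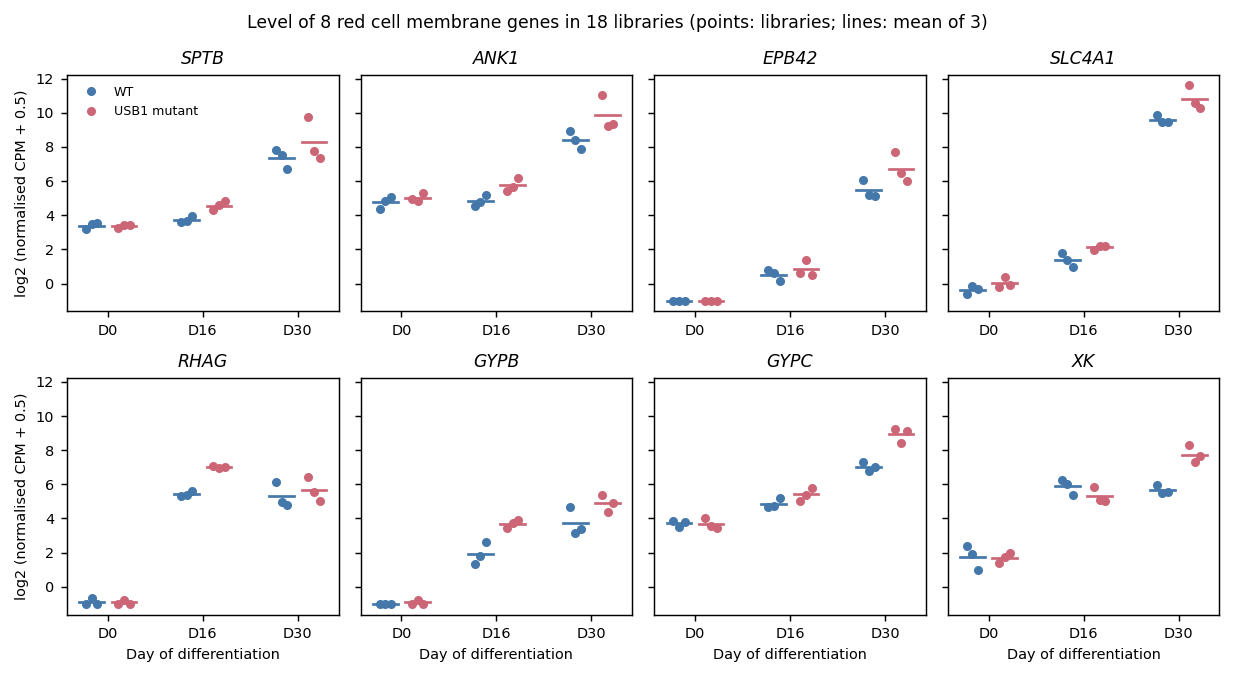
Level of each gene in the 18 libraries, as log2 (CPM + 0.5) on the y axis, by day on the x axis, with WT in blue, USB1 mutant in red, a point per library and a line at the mean of 3. EPB42, SLC4A1, RHAG and GYPB start at or near 0 counts, RHAG is highest in mutant cells at D16, and XK separates the genotypes at D30.

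SPTB (ENSG00000070182, chromosome 14, 64746283 to 64879907, GRCh38, minus strand) encodes β-spectrin, the strand of the skeleton that binds ankyrin. Its level in WT was 8.58, 10.6 and 11.0 CPM at D0, 11.4, 12.4 and 15.2 at D16, and 225.5, 186 and 106 at D30. Mutant libraries had 9.02, 10.3 and 10.4 CPM at D0, 19.0, 23.5 and 27.8 at D16, and 862, 217 and 160 at D30. The genotypes overlapped at D0 and D30, and at D16 every mutant library was above every WT library. SPTB rose 13.2-fold from D16 to D30 in WT (log2 3.72 ± 0.48, SE, padj = 2.77e-06) and 17.7-fold in the mutant (4.14 ± 0.48, padj = 6.87e-07). From D0 to D16 it rose in the mutant (1.25 ± 0.47, padj = 0.0244) and was not called in WT (0.38 ± 0.47, padj = 0.486).

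Between genotypes SPTB was 1.75-fold higher in mutant progenitors (log2 0.81 ± 0.18, padj = 0.0115), a call lost at 0.215 when the contrast was taken from the fit over all 18 libraries. At D30 it was not called (1.26 ± 0.58, padj = 0.191), and without mutant replicate 1 the value was 0.135 (padj = 0.814). Over all libraries left out singly the D30 value ran from 0.135 to 1.65, and 3 of 16 alternatives called it. SPTB shares 3408 exon bases with PLEKHG3 on the opposite strand, and the sources used here do not state whether the counting used strand. Smaller overlaps with a gene on the opposite strand were 830 bases in ANK1 and 151 in GYPB. EPB42 shares 447 exon bases with another gene on its own strand. PLEKHG3 was at 137 ± 31.5 and 121 ± 5.43 CPM at D16 and was not called between genotypes on any day (padj = 0.385 at D16), while its level fell from D16 to D30 in WT (−0.49 ± 0.18, padj = 0.0265).

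ANK1 (ENSG00000029534, chromosome 8, 41653220 to 41896741, minus strand) encodes ankyrin-1, which ties spectrin to band 3. WT libraries had 19.9, 27.6 and 33.4 CPM at D0, 23.2, 27.4 and 36.5 at D16, and 489, 336 and 233 at D30. In the mutant these were 30.9, 27.9 and 38.4 at D0, 42.8, 49.9 and 71.6 at D16, and 2149, 594 and 645 at D30. At both D16 and D30 every mutant library was above every WT library, and mutant replicate 1 at D30 was more than 3 times the other two. The rise from D16 to D30 was 12.1-fold in WT (log2 3.597 ± 0.43, padj = 1.22e-06) and 20.6-fold in the mutant (4.37 ± 0.44, padj = 1.45e-07). From D0 to D16 ANK1 was not called in either genotype (0.11 ± 0.41, padj = 0.81 in WT and 0.76 ± 0.40, padj = 0.102 in the mutant). Of 27 alternatives, 10 called this change in the mutant and 0 in WT.

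ANK1 was 1.84-fold higher in mutant cells at D16 (log2 0.88 ± 0.21, padj = 0.0153) and 3.2-fold higher at D30 (1.68 ± 0.50, padj = 0.0604). The D16 call was lost at 0.126 in the fit over 18 libraries. The D30 call was lost without WT replicate 2 (padj = 0.16) or WT replicate 3 (0.182), and without mutant replicate 1 it stood at 0.817 (padj = 0.096). SPTB and ANK1 ran together over the 12 libraries of D16 and D30, with Pearson's r of 0.992 on log2 (CPM + 0.5), a description of libraries that share days and genotypes.

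EPB42 (ENSG00000166947, chromosome 15, 43197227 to 43221018, minus strand) encodes protein 4.2, which sits where ankyrin meets band 3. It had 0 counts in all 6 D0 libraries. At D16 it was barely detected, with 1.2, 1.005 and 0.589 CPM in WT and 1.06, 2.12 and 0.906 CPM in mutant libraries, from 8 to 27 counts each. By D30 WT libraries had 66.8, 35.8 and 34.5 CPM and mutant libraries 211, 87.2 and 64.5. The genotypes overlapped on both days, at D30 because WT replicate 1 was above mutant replicate 3.

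Taken against 3 counts over the D0 group, which a count of 0 allows, EPB42 was 11.3-fold higher at D16 in WT and 15.9-fold higher in the mutant. Both rises were called (padj = 0.00656 and 0.0023). These 2 ratios leave out the counting error at D16, where the groups had 34 and 53 counts in all, so they are not strict lower bounds. EPB42 then rose 49.7-fold to D30 in WT (log2 5.64 ± 0.54, padj = 6.21e-07) and 89.4-fold in the mutant (6.48 ± 0.52, padj = 9.06e-08). Between genotypes it was not called at D16 (0.53 ± 0.47, padj = 0.451) and was 2.67-fold higher in mutant cells at D30 (1.42 ± 0.44, padj = 0.0669). That call was lost without WT replicate 2, WT replicate 3 or mutant replicate 1 (padj = 0.189, 0.197 and 0.136), and the last of these left a value of 0.753.

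SLC4A1 (ENSG00000004939, chromosome 17, 44248390 to 44268141, minus strand) encodes band 3, the chloride and bicarbonate exchanger and the main anchor of the skeleton. It had 11 counts in all over the 3 WT libraries and 19 over the 3 mutant libraries at D0. Levels at D16 were 2.89, 2.07 and 1.47 CPM in WT and 3.41, 4.08 and 4.04 CPM in mutant libraries. At D30 they were 926.5, 695 and 696 in WT and 3130, 1496 and 1251 in the mutant. Every mutant library was above every WT library on both days. No other of the 8 genes changed as much after D16, with a 371-fold rise in WT (log2 8.54 ± 0.38, padj = 7.21e-12) and a 507-fold rise in the mutant (8.99 ± 0.37, padj = 4.54e-12). The change from D0 to D16, from few counts, was 6.95-fold in WT (95% exact counting interval 3.68 to 14.5) and 7.21-fold in the mutant (4.46 to 12.3), both called (padj = 3.90e-04 and 4.54e-05).

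SLC4A1 was 1.78-fold higher in mutant cells at D16 (log2 0.83 ± 0.32, padj = 0.0924) and 2.53-fold higher at D30 (1.34 ± 0.33, padj = 0.0333). The D16 call, on 20 to 58 counts per library, held in 5 of 15 alternatives and was lost without any one of WT replicates 2 and 3 and mutant replicates 1 to 3 (padj = 0.143 to 0.234). The D30 call was lost without WT replicate 2 or WT replicate 3 (padj = 0.115 each), and without mutant replicate 1 it remained a call at 0.833 (padj = 0.025). The average effective transcript length of SLC4A1 was 4675 ± 4.67 bases in WT at D16, 3873 ± 160 in WT at D30 and 3185 ± 224 in the mutant at D30. At D0, on 11 counts in WT, this average was 2505 ± 1886 bases. Which transcript forms were present was not tested. EPB42 and SLC4A1 had an r of 0.992 over the 12 libraries of D16 and D30.

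RHAG (ENSG00000112077, chromosome 6, 49605175 to 49636839, minus strand) encodes the Rh-associated glycoprotein, a gas and ammonium channel that carries the Rh proteins. It had 2 counts over the WT and 1 over the mutant libraries of D0. At D16 it reached 39.5, 40.9 and 49.0 CPM in WT and 134, 125 and 130 CPM in mutant libraries. At D30 it stood at 68.4, 30.7 and 27.6 CPM in WT and 85.0, 46.1 and 31.7 CPM in the mutant. The genotypes were far apart at D16, with SDs of 5.14 and 4.14 CPM, and overlapped at D30. The rise to D16 was 816-fold in WT (95% exact counting interval 226 to 6740) and 4600-fold in the mutant (825 to 182000), both called.

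RHAG was 2.93-fold higher in mutant progenitors (log2 1.55 ± 0.13, padj = 8.95e-05), and the call held in all 16 alternatives (1.5 to 1.64). At D30 it was not called (0.38 ± 0.42, padj = 0.592), with −0.0852 (padj = 0.917) without mutant replicate 1. It was the only one of the 8 that fell after D16 in the mutant, by 1.24 on the log2 scale (SE 0.32, padj = 0.00236), and in WT it was not called (−0.04 ± 0.32, padj = 0.929). Its correlation with the other genes over the D16 and D30 libraries ran from −0.377 (SLC4A1) to 0.285 (GYPB), where all other pairs had an r of 0.522 or more.

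GYPB (ENSG00000250361, chromosome 4, 143996104 to 144019380, minus strand) encodes glycophorin B, the carrier of the S and s antigens. Its sequence has near-identical copies such as GYPE, so how reads were split among the copies is uncertain. It had 0 counts at D0 but for 1 in a mutant library. At D16 it was at 2.05, 2.95 and 5.67 CPM in WT and 10.6, 12.8 and 14.4 CPM in mutant libraries, with no overlap. At D30 it was at 24.7, 8.28 and 9.78 CPM in WT and 41.4, 20.7 and 29.6 CPM in the mutant, and mutant replicate 2 was below WT replicate 1.

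GYPB was 3.38-fold higher in mutant cells at D16 (log2 1.76 ± 0.32, padj = 0.00361), in all 16 alternatives, and was not called at D30 (1.12 ± 0.43, padj = 0.119), although 7 of 16 alternatives called it there. Without mutant replicate 1 its D30 value was 0.829 (padj = 0.275). Against 3 counts over the D0 group it was 46.7-fold higher at D16 in WT (padj = 5.02e-06), a ratio that leaves out the counting error at D16. In the mutant, from 1 count to 499, the ratio was 449 (95% exact counting interval 80.3 to 17800, padj = 1.52e-07). It rose 3.86-fold from D16 to D30 in WT (1.95 ± 0.43, padj = 0.00100) and 2.43-fold in the mutant (1.28 ± 0.40, padj = 0.0103).

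GYPC (ENSG00000136732, chromosome 2, 126656133 to 126696667, plus strand) encodes glycophorins C and D, which bind protein 4.1. WT libraries had 14.1, 10.9 and 13.5 CPM at D0, 24.8, 25.6 and 36.5 at D16, and 158.5, 109 and 131 at D30. Mutant libraries had 15.9, 11.2 and 10.3 CPM at D0, 32.2, 41.7 and 54.6 at D16, and 615, 347 and 567 at D30. At D30 the lowest mutant library was above the highest WT library, and on the other days the genotypes overlapped. GYPC rose at each step, 2.26-fold and then 4.56-fold in WT (padj = 3.93e-04 and 5.13e-07) and 3.45-fold and then 11.9-fold in the mutant (padj = 5.05e-06 and 1.90e-09).

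GYPC was 1.44-fold higher in mutant cells at D16 (log2 0.53 ± 0.21, padj = 0.0985) and 3.85-fold higher at D30 (1.95 ± 0.25, padj = 0.00358). The D16 call held in 8 of 16 alternatives and was lost without WT replicate 1 or 2 or mutant replicate 2 or 3 (padj = 0.181 to 0.341). The D30 call held in all 16, with values of 1.79 to 2.16, and stood at 1.79 (padj = 0.00422) without mutant replicate 1.

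XK (ENSG00000047597, chromosome X, 37685791 to 37732130, plus strand) encodes the membrane protein that carries the Kx antigen and is linked to the Kell glycoprotein. Its level in WT was 4.72, 3.29 and 1.44 CPM at D0, 75.5, 63.9 and 40.4 at D16, and 61.8, 43.9 and 45.8 at D30. Mutant libraries had 2.12, 2.91 and 3.38 CPM at D0, 57.6, 33.5 and 32.4 at D16, and 311, 156 and 201.5 at D30. The genotypes overlapped at D16, where the 2 lowest values were mutant, and at D30 the lowest mutant library had more than 2 times the level of the highest WT library. XK rose to D16 in WT (18.4-fold, log2 4.20 ± 0.37, padj = 1.09e-08) and in the mutant (14.5-fold, 3.86 ± 0.38, padj = 4.82e-08). After D16 it was not called in WT (−0.25 ± 0.30, padj = 0.494) and rose 5.42-fold in the mutant (2.44 ± 0.31, padj = 2.61e-06).

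XK was 4.43-fold higher in mutant cells at D30 (log2 2.15 ± 0.27, padj = 0.00334), in all 16 alternatives (1.83 to 2.35), of which 1.83 (padj = 0.00173) was the value without mutant replicate 1. At D16 its value was −0.58 ± 0.26 (padj = 0.144). With the replicate number as a block, which the deviations of same-numbered libraries allowed at D16, it was called lower in mutant progenitors (−0.59, padj = 0.00662), the one call among the 8 genes that the replicate block changed at D0 or D16. It was also called lower with DESeq2, with no count filter and without WT replicate 3 or mutant replicate 1, 5 of 16 alternatives in all. XK was the only one of the 8 with a negative value at D16 and had the largest of the 8 positive values at D30.

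**Figure D4:**
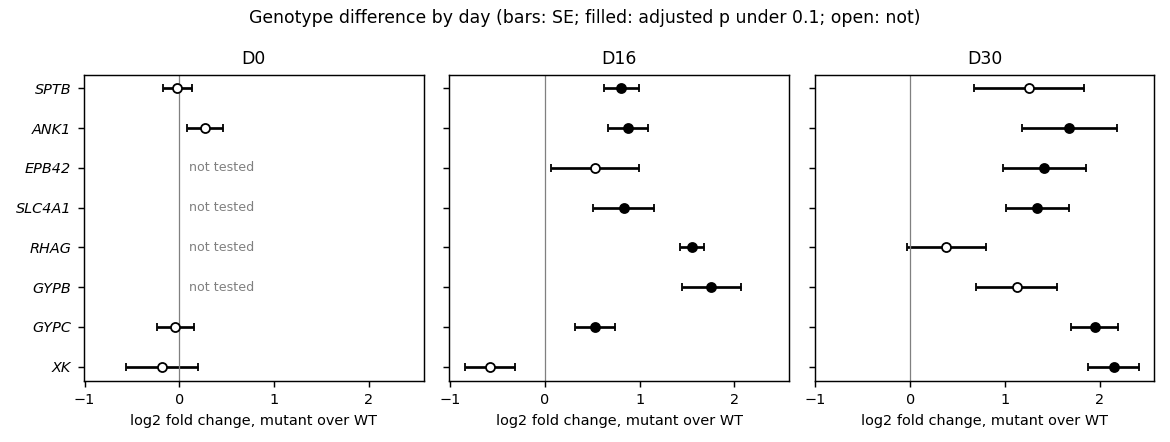
Log2 fold change of mutant over WT (x axis) with its SE for each gene on D0, D16 and D30, filled where the adjusted p was under 0.1 and open where it was not. GYPB (1.76) and RHAG (1.55) lead at D16, XK (2.15) and GYPC (1.95) lead at D30, and the 4 genes with too few counts at D0 are marked as not tested.

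Whether the course over time differed between genotypes was tested as an interaction in the fit over 18 libraries. Between D0 and D16, EPB42, SLC4A1, RHAG and GYPB had too few D0 counts for a difference to be called or excluded. Of the other 4 genes, 0 were called by edgeR, with 0 under any alternative and 0 at an unadjusted p under 0.05. Over all genes 3.86% were called higher and 3.75% lower. The 4 genes with enough D0 counts had differences of 0.87 ± 0.66 (SPTB), 0.64 ± 0.57 (ANK1), 0.61 ± 0.35 (GYPC) and −0.34 ± 0.53 (XK). Between D16 and D30, 3 of 8 were called, against 10.3% higher and 10.2% lower of all genes. XK rose more in the mutant (2.69 ± 0.43, padj = 7.05e-04) and so did GYPC (1.38 ± 0.33, padj = 0.0104). The change of RHAG was lower in the mutant (−1.19 ± 0.45, padj = 0.0836).

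The XK and GYPC differences were called in all 27 alternatives. That of RHAG was called in 15 of 27. It was lost with transcript lengths as offsets (padj = 0.133) and without any one of 10 libraries (0.101 to 0.274), of which WT replicate 1 at D30 moved the value most, to −0.678. The remaining 5 genes were not called, among them EPB42 (0.85 ± 0.81) and GYPB (−0.67 ± 0.58). For SPTB, ANK1 and SLC4A1 the sign depended on mutant replicate 1 at D30, without which the values of 0.42, 0.77 and 0.45 became −0.711, −0.1 and −0.069.

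**Figure D5:**
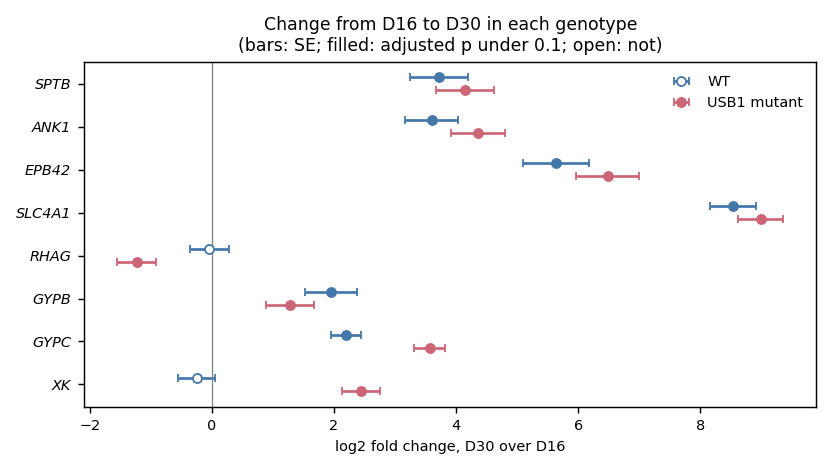
Log2 fold change from D16 to D30 (x axis) with its SE for each gene in WT (blue) and USB1 mutant (red), filled where the adjusted p was under 0.1. SLC4A1 rises most in both genotypes (8.54 and 8.99), XK is at 2.44 in the mutant and −0.25 in WT, and RHAG lies below 0 in the mutant (−1.24).

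The other genes of the membrane were taken from 3 lists. Among 11 genes of the skeleton and its junctions, 0 were higher and 2 lower in mutant progenitors (4 lower with the replicate block). Of all genes, 13.1% were called higher and 15.3% lower (18.3% and 18.9% with the block), so 2 of 11 lower is near the share of all genes. The 2 were TPM3, a tropomyosin of the short actin filaments (1033 ± 3.6 to 669 ± 27.0 CPM, log2 −0.67 ± 0.13, padj = 0.00457), and ADD1, the adducin that caps them (191 ± 39.1 to 133 ± 5.71 CPM, −0.57 ± 0.16, padj = 0.0299). At D30, 4 were higher and 1, TPM3 (−0.65, padj = 0.0394), lower, against 10.8% and 9.75% of all genes. Without mutant replicate 1 the counts were 4 and 1 too, against 9.02% and 8%. DMTN (dematin, an actin bundler) went from 125 ± 6.19 to 549 ± 211 CPM (2.14 ± 0.26, padj = 0.00300). TMOD1 (tropomodulin, 2.24 ± 0.38, padj = 0.00863), MPP1 (p55, 1.015 ± 0.18, padj = 0.0104) and EPB41 (protein 4.1, 1.28 ± 0.24, padj = 0.012) were also higher. The list medians were −0.26 at D16 and 0.32 at D30.

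EPB41 was at 286.5 ± 12.4 and 297.5 ± 20.3 CPM at D16 (0.02 ± 0.12, padj = 0.941), where the genotypes overlapped, and at 411 ± 76.7 and 997 ± 301 CPM at D30, where they did not.

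In the band 3 and Rh list of 5 genes, 1 was higher at D16 (2 with the replicate block, which called 18.3% of all genes higher) and 3 at D30, with 0 lower on either day. Of all genes, 13.1% were called higher and 15.3% lower at D16, and 10.8% and 9.75% at D30. GYPE (10.5 ± 4.06 to 27.95 ± 2.18 CPM, log2 1.35 ± 0.24, padj = 0.00347) was called at D16, with the uncertainty given for GYPB. At D30 the calls were RHD (1.67 ± 0.40, padj = 0.031), ICAM4 (1.11 ± 0.29, padj = 0.0378) and RHCE (1.42 ± 0.45, padj = 0.0719), and RHD and RHCE are close copies of each other. Without mutant replicate 1 these values were 0.99 (padj = 0.026), 0.668 (0.0392) and 0.909 (0.193), so that 2 of the 3 were called. Of all genes, 9.02% were called higher in that repeat. The list medians were 0.42 and 1.11.

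Of 18 other red cell membrane proteins, 5 were higher and 4 lower at D16, against 13.1% and 15.3% of all genes. At D30, 7 were higher and 0 lower, against 10.8% and 9.75% of all genes. Without mutant replicate 1 the counts were 6 and 1, against 9.02% and 8%. KEL, the Kell glycoprotein bound to XK, was higher on both days, from 13.4 ± 0.503 to 26.7 ± 3.97 CPM at D16 (log2 0.96 ± 0.16, padj = 0.00238) and from 44.6 ± 17.6 to 182 ± 142 CPM at D30 (2.04 ± 0.50, padj = 0.033). Mutant replicate 1 was by far the highest of these at D30, and without it the value was 1.175 (padj = 0.0302). XK and KEL thus had opposite signs at D16, where XK was not called (padj = 0.144), and the same sign at D30. The smallest padj at D16 were those of ABCB6, a porphyrin transporter (1.14, padj = 5.95e-04), CD55, a complement regulator (−1.23, padj = 6.11e-04), and SLC29A1, a nucleoside transporter (−1.03, padj = 0.00132). At D30 they were those of SLC2A1, the red cell glucose transporter (337 ± 84.3 to 1182 ± 394 CPM, 1.81 ± 0.28, padj = 0.00647), SEMA7A (0.92 ± 0.14, padj = 0.00674) and ERMAP (1.39 ± 0.25, padj = 0.0107).

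Of 15 paralogues that serve other tissues, 12 were tested on each of these days. At D16, 2 were higher and 3 lower, where 13.1% of all genes were called higher and 15.3% lower. At D30, 0 were higher and 3 lower (2 without mutant replicate 1). Of all genes, 10.8% were called higher and 9.75% lower at D30 (9.02% and 8% without mutant replicate 1). EPB41L3 was lower at D16 (117 ± 25.9 to 47.6 ± 4.8 CPM, padj = 7.30e-04) and at D30 (98.8 ± 16.8 to 65.4 ± 2.17 CPM, padj = 0.0401). SPTBN1, the β-spectrin of most tissues, was lower at D16 (448 ± 29.7 to 326 ± 21.5 CPM, padj = 0.0213), and SLC4A3 was higher (padj = 0.0182). At D30 the other calls were SPTAN1 (−0.67, padj = 0.0332) and ANK2 (−0.55, padj = 0.0983). At D0, 1 of 11 skeleton and junction genes tested, TMOD1 (−2.38 ± 0.57, padj = 0.0863), and 1 of 13 paralogues, EPB41L3 (−0.78 ± 0.13, padj = 0.021), were called, both lower. The band 3 and Rh list (1 tested) and the other membrane proteins (14 tested) had 0 calls at D0. Of all genes, 1.07% were called higher and 1.87% lower there. With the replicate block 2 paralogues were lower at D0, and among the other membrane proteins 3 were higher and 1 lower, while over all genes the block raised the calls at D0 to 6.04% higher and 5.63% lower.

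Markers of cell types moved with the genotype on the same days, and their part in the differences of the 8 genes was not tested. Of all genes, 13.1% were called higher and 15.3% lower at D16 (18.3% and 18.9% with the replicate block). At D30 the shares were 10.8% and 9.75% (9.02% and 8% without mutant replicate 1). Among 21 erythroid nuclear and cytosolic genes, 18 were tested at D16, of which 4 were higher and 4 lower (10 and 4 with the replicate block), and their summed level was 1458 to 1983 CPM in WT and 1966 to 2823 CPM in mutant libraries, with TSPO2 at 0 in both. KLF1 (9.63 ± 3.57 to 25.4 ± 9.86 CPM, padj = 0.0121), TAL1 (117 ± 10.8 to 217 ± 18.7 CPM, padj = 0.0015) and HEMGN (padj = 0.0017) were higher, CA2 was lower (27.8 ± 3.37 to 4.79 ± 2.21 CPM, padj = 3.05e-04), and GATA1 was not called (121 ± 4.41 and 114 ± 14.1 CPM, padj = 0.509). At D30, 16 of 21 were higher and 1 lower (14 and 1 without mutant replicate 1), with sums of 14950 to 19870 CPM in WT and 58510 to 98870 CPM in mutant libraries. GATA1 went from 38.6 ± 5.05 to 108 ± 25.0 CPM (padj = 0.00386), KLF1 from 99.04 ± 18.2 to 260 ± 118 CPM (padj = 0.019), and the globins HBA2, HBA1 and HBE1 had the smallest padj (0.00196 to 0.00263).

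Over all genes, 13.1% were called higher and 15.3% lower at D16. Megakaryocyte genes, of a lineage that shares progenitors with red cells, were higher in mutant cells there in 9 of 10 tested, with 0 lower. Their sums were 964 to 1016 CPM in WT and 1451 to 1622 CPM in mutant libraries, with none of the list at 0. The 3 with the smallest padj were PPBP, GP1BA and ITGB3 (0.93, 1.09 and 0.97, padj = 0.00162 to 0.00174). Of the 6 endothelial genes 4 were higher, led by ESAM, TEK and PLVAP (padj = 0.00489 to 0.00605), with sums of 332 to 410 and 396 to 441 CPM. Mast cell and eosinophil genes were split, with 3 of 12 higher and 7 lower. Their sums were 35330 to 64500 CPM in WT and 7452 to 11520 CPM in mutant libraries. The higher ones were KIT, TPSAB1 and TPSB2 (1.62, 1.29 and 1.22, padj = 0.00183 to 0.0423). Among the lower ones RNASE2, FCER1A and PRG3 had the smallest padj (8.74e-05 to 1.38e-04). Neutrophil genes were lower in 7 of 9 tested and higher in 1, with sums of 4045 to 11050 and 2918 to 4463 CPM, led by BPI, PRTN3 and AZU1 (padj = 1.28e-05 to 0.00256).

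Macrophage genes were higher in 6 of 10 and lower in 1 at D16, against 13.1% and 15.3% of all genes. Their sums were 270 to 509 CPM in WT and 588 to 758 CPM in mutant libraries. C1QC (padj = 0.00296), C1QB (0.00589) and the lower CD68 (0.00494) led. At D30, where 10.8% of all genes were called higher and 9.75% lower, they were higher in 0 and lower in 6 of 10 (5 without mutant replicate 1). Their sums there were 3875 to 4860 and 1906 to 3006 CPM, and VSIG4, CD163 and MRC1 led (padj = 0.0114 to 0.0239). Mast cell and eosinophil genes were higher in 5 of 12 and lower in 0 at D30, led by TPSB2, KIT and TPSAB1 (4.29, 4.11 and 4.04, padj = 0.00196 to 0.0058), with overlapping sums of 1632 to 7480 and 3577 to 8687 CPM. Neutrophil genes were higher in 1 and lower in 5 of 8 tested (1 and 3 of 9 without mutant replicate 1), led by MMP8, LTF and MPO (padj = 0.00647 to 0.0756), with overlapping sums of 224 to 761 and 63.2 to 352 CPM. Of 5 megakaryocyte genes tested at D30, VWF was lower and ITGA2B higher (sums of 65.8 to 134 and 125 to 261 CPM), and of 4 endothelial genes PECAM1 was lower and KDR higher (278 to 343 and 154 to 232 CPM). None of these 5 lists had a gene at 0 in a whole group at D16 or D30. PTPRC was lower on both days (padj = 0.0389 and 0.0675), and of 4 pluripotency genes tested 1, LIN28A, was higher at D16 and 0 were called at D30. At D0 the marker lists gave 2 calls, KIT lower and CLC higher, where 1.07% of all genes were called higher and 1.87% lower. With the replicate block they gave 1 more mast cell and eosinophil gene higher, 1 erythroid and 2 pluripotency genes higher and 2 megakaryocyte genes lower. The block called 6.04% of all genes higher and 5.63% lower at D0.

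For each of the 8 genes, the 3 genes most like it among 14412 with a mean of at least 1 CPM were found by Pearson's r over the 12 libraries of D16 and D30. These libraries share days, genotypes and the replicates 1 that stood high at D30, so many genes reach a high r. SPTB was most like SLC30A10 (0.993), ANK1 (0.992) and AGAP6 (0.991), and ANK1 most like SPTB, HECTD3 and SH2B1 (0.991 each for the last pair). EPB42 was most like ATP6V0CP4, SLC4A1 and ERFE (0.993 to 0.992), where ERFE encodes erythroferrone, the hormone that erythroid cells release to lower hepcidin. SLC4A1 was most like ERFE (0.996), IFFO1 and WDR91.

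GYPC was most like RBM38 (0.992), CDC34 and SLC25A39, of which SLC25A39 is a mitochondrial carrier needed for glutathione import. The remaining genes had lower values. GYPB was most like MINPP1 (0.98), PSMF1 and RPP14 (0.95 each), XK most like REXO5 (0.976), PDIK1L and ZRANB1, and RHAG most like SMAD6 (0.96), CGN and STON2. Among the 8 themselves, SPTB, ANK1, EPB42, SLC4A1 and GYPC had pairwise values of 0.927 to 0.992, GYPB had 0.713 to 0.841 with these 5, and XK had 0.623 to 0.764.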

How the data were processed

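Libraries were made from rRNA-depleted RNA with a strand-specific kit. Per the submitters' processing notes, Trimmomatic 0.36 trimmed the reads, Salmon 0.13.1 assigned them to Ensembl cDNAs of GRCh38, and DESeq2 served for the authors' own tests (its version is not stated in the sources used here). For each gene and library the authors deposited the TPM (abundance per length), the expected count (Salmon's estimated count) and the effective transcript length. The tables held 0 columns of samples outside the series' list.

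Expected counts were rounded to whole numbers. Symbols came from GENCODE release 44 for 35051 identifiers, and the 117 without one held 0.238% of counts and stayed in. Genotypes were compared on the 6 libraries of each day, and changes between days and interactions in a fit of 6 group means over 18 libraries, with edgeR 4.0.16 in R 4.3.3 (filterByExpr, TMM, glmQLFit, glmQLFTest) and a threshold of adjusted p under 0.1, as in the study. The SE is the log2 fold change divided by the square root of F. CPM are scaled with TMM over 18 libraries. Where D0 counts were near 0, folds are pooled count ratios with 95% exact (Clopper-Pearson) intervals, which cover counting error only. Where a D0 group had 0 counts, the ratio was taken against 3 counts over the group. Such a ratio leaves out the counting error at D16. The scripts were tested on simulated data.

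All 8 genes are named in every comparison, but for the 4 with too few D0 counts to be tested at D0 or for an interaction from D0, with EPB41, KEL, GATA1, KLF1, USB1, up to 3 called genes with the smallest adjusted p per list and genotype comparison, and the 3 most alike genes. Some genes of this rule and of the lists are not reported here. The 8 genes and the lists were chosen with earlier results of these data known. Whether the replicates were separate cultures is not stated, so the spread behind each p-value may be technical. Same-numbered WT and mutant libraries deviated together at D0 (r of 0.114 to 0.238) and D16 (0.107 to 0.317), above the limit for pairing, and at D30 they did not (−0.0393 to 0.249). No label gives a batch. Alternatives were RLE scaling, scaling with globins and the 20 most abundant genes left out, testing without a count filter or only genes at 5 CPM or more in 3 libraries, limma-voom (limma 3.58.1), DESeq2 1.42.0, lengths as offsets, a replicate block, adjusted p under 0.05, contrasts from 18 libraries and each library left out. Gene lists at D30 without mutant replicate 1 were an addition made after seeing the data. Promoter sequences are from RefSeq, with 5 of 8 genes shown.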

Additional observations from a re-analysis of the deposited data

Results flagged for a closer look

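For 3 of the 8 genes the change from D16 to D30 differed between the genotypes in the interaction test of edgeR over 16829 genes. XK had a difference of 2.69 on the log2 scale (padj = 7.05e-04), with 311, 156 and 201.5 CPM in mutant against 61.8, 43.9 and 45.8 CPM in WT libraries at D30. GYPC had a difference of 1.38 (padj = 0.0104), with levels of 615, 347 and 567 against 158.5, 109 and 131 CPM at D30. RHAG had a difference of −1.19 (padj = 0.0836), from 130 ± 4.14 CPM in mutant progenitors to 54.3 ± 27.6 CPM at D30, while WT stayed at 43.1 ± 5.14 and 42.3 ± 22.7 CPM. The share of all genes called was 10.3% with a higher and 10.2% with a lower change in the mutant. Erythroid, macrophage and mast cell genes moved between the same groups, and their part in these differences was not tested.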

How the results depend on the processing

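Over all alternatives, 1505 values of single genes were computed again. Of these, 1421 kept their direction and side of the threshold, 41 lost and 25 gained a call, and 18 changed sign, all of them when 1 library was left out and none among called values. The count of the 8 genes called at D16 fell from 6 to 2 (GYPB and RHAG) with the contrast from 18 libraries. At an adjusted p under 0.05 the D16 calls of SLC4A1 and GYPC (padj = 0.0924 and 0.0985) were lost, and at D30 the count fell from 5 to 3. Leaving out 1 library gave 4 to 6 at D16 and 2 to 6 at D30, with 2 without WT replicate 2 or WT replicate 3. The cause was not tested. With the replicate block, 7 of 8 genes were called at D16, 6 higher and 1, XK, lower. The block called 18.3% of all genes higher and 18.9% lower there. At D30 the block called 7 of 8 higher and 0 lower, against 11.4% and 11% of all genes. The numbers do not pair at D30, where SPTB (0.913, padj = 0.0607) and GYPB (1.2, padj = 0.00688) were gained. The block changed no other call of the 8 genes.

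Sign changes on leaving out 1 library all concerned values that were not called. At D0 the values ranged from −0.14 to 0.0537 for SPTB, from −0.258 to 0.0779 for GYPC and from −0.489 to 0.19 for XK. From D0 to D16 in WT, ANK1 ranged from −0.0844 to 0.291. From D16 to D30 in WT, RHAG ranged from −0.563 to 0.182. RHAG at D30 ranged from −0.0852 to 0.899, and the differences between genotypes from D16 to D30 ranged from −0.711 to 0.797 for SPTB, from −0.1 to 1.07 for ANK1 and from −0.069 to 0.684 for SLC4A1.

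Over all genes, calls at D0 went from 432 to 1718 with the replicate block, 174 with lengths as offsets, 185 from 18 libraries, 227 at an adjusted p under 0.05, and 116 to 280 without WT replicate 2, mutant replicate 2 or mutant replicate 3. At D16 they went from 4135 to 2450 to 2520 without WT replicate 1 or 2. At D30 they went from 2933 to 4892 from 18 libraries, 1801 at 0.05, and 1452 to 1779 without a WT library. For the interaction from D0 to D16 they went from 1281 to 663 with lengths, 661 at 0.05 and 602 to 2207 without 1 library. EPB42 at D16 rested on 8 to 27 counts per library, and 4 of the genes had too few counts at D0 to be tested.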
